A study of Mus musculus with 13 samples.

Results

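Kinesins are the motor proteins that walk along, slide or shorten microtubules, the hollow protein filaments of the cell skeleton and of the mitotic spindle. Of the 53465 genes measured, 41 carry a kinesin motor name, meaning a symbol made of Kif, a number and at most 1 of the letters a, b and c, or the symbol Kifc1, Kifc2 or Kifc3. They were taken by name alone and sorted by known role into 12 mitotic, 14 transport, 9 ciliary and 6 other kinesins. Kif2b was at a TPM (a level corrected for transcript length that adds up to the same total in each library) of 0 in all 13 libraries, and Kif12 and Kif28 also failed the filter on low values, which leaves 38 that were tested. The filter kept genes that reached a TPM of 1 in 3 or more of the libraries. The name rule leaves out Cenpe, Stard9 and Kifc5b, kinesins whose symbols do not begin with Kif and a number, and these are not counted as members.

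The mice were female C57BL/6 animals. The WT group was 3 ovaries of WT genotype, labelled non-treated, with no separate statement of their age or surgery. The MP group was 10 ovarian tumors labelled Myc;p53-/- and non-treated, each grown after the ovary of a WT mouse aged 8 to 12 wk was electroporated with DNA coding for Cas9 with an sgRNA to Trp53, for the Sleeping Beauty transposase, and for MYC on a transposon (EPO-GEMM, an electroporation-based mouse model). The labels name no promoter or Cre that limits the plasmids to 1 kind of ovarian cell, and each library is RNA of a whole piece of tissue.

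The libraries were of unequal depth, with 31445004 to 64013840 reads per WT ovary and 3892690 to 19906507 per MP tumor. The library names carry 3 numbers, read here as library requests. First and later follow the size of the number, since the names give neither its meaning nor a date. The first request holds the 3 WT ovaries and MP tumors 1, 2 and 3, and the other 7 tumors came with later requests that hold no WT ovary, so for those tumors request and group cannot be told apart. Trp53, the gene that was cut, stood at 80.7, 85.0 and 85.4 TPM in the WT ovaries and at 4.30 to 26.0 in MP tumors 1 to 9. In MP tumor 10 it stood at 187 TPM, and since a Cas9 cut can leave the RNA in place its level does not check the label. The median difference of all 17277 genes tested was −0.58 (log2 of TPM + 1, MP minus WT), so a scale in which that median is near 0 is given beside the main one below.

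The mitotic kinesins build and move the spindle, pull and push chromosomes, and organise the bridge between daughter cells at cytokinesis. Most are made in waves with the cell cycle, and the DNA element tied to this timing is the cell cycle genes homology region, with the letters TTTGAA, which lies close to the transcription start and binds the DREAM and MuvB complexes. The transport kinesins carry vesicles, organelles and RNA through the cell. The ciliary kinesins act in or at the primary cilium or motile cilia, where some of them carry cargo along microtubules.

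The letters TTTGAA were in most promoters of the mitotic kinesins and few of the others, and 6 windows are printed to show the element and its absence. RefSeq (GRCm38.p6) gave windows of 250 bases before to 50 bases after a start for 32 of the 41 kinesins, 11 of them mitotic (Kif20a was not matched). TTTGAA, searched on both strands, was in the window of 10 of the 11 mitotic kinesins, 1 of 8 transport, 1 of 8 ciliary and 1 of 5 other kinesins, and in 17.9% of all 32851 windows. Within 30 bases of the start it was in 8 of the 11, against 3.19% of all windows. CCAAT, the letters of the NF-Y site, was in 7 of the 11 mitotic kinesins, 1 of 8 transport, 5 of 8 ciliary and 2 of 5 other kinesins against 37.4% of all windows, so it did not set the mitotic from the ciliary kinesins apart. Both motifs were together in 7 of the 11 mitotic, 0 of 8 transport, 1 of 8 ciliary and 1 of 5 other kinesins against 6.95% of all. CACGTG, the letters that MYC and other E-box proteins bind, was in 0 of the 11 mitotic windows and in 7.15% of all, and the variant TTCGAA was in 0 of the 11 and in 1.56% of all. Each line shows 80 bases before and 20 after the start, on the gene's strand, with TTTGAA and CCAAT in capitals whichever strand they are read on. Kif11 (chr19:37376302-37376401, plus strand), Kif15 (chr9:122951001-122951100, plus strand) and Kif22 (chr7:127042401-127042500, minus strand) show the element. Kif18a (chr2:109280658-109280757, plus strand) is the mitotic kinesin without it. Kif3c (chr12:3365052-3365151, plus strand) and Kif17 (chr4:138262171-138262270, plus strand) are the transport and the ciliary kinesin that were lower in the tumors.
Kif11: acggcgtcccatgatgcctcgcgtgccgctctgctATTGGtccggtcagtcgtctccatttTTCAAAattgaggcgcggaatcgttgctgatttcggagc
Kif15: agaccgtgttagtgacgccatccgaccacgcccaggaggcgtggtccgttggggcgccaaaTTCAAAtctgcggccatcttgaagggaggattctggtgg
Kif22: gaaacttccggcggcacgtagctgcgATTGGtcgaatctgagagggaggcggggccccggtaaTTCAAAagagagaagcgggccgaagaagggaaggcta
Kif18a: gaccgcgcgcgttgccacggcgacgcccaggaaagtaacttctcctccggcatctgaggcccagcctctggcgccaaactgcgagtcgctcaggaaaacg
Kif3c: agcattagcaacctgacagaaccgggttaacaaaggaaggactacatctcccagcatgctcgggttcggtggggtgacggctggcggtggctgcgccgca
Kif17: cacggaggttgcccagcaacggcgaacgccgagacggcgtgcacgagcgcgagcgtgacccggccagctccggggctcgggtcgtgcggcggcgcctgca
The element began 19 bases before the start in both Kif11 and Kif15 and 17 bases before it in Kif22. These matches describe letters and do not show binding.

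All 12 mitotic kinesins had a higher mean in the MP tumors than in the WT ovaries, but few passed the test. By limma on log2(TPM + 1), with Benjamini-Hochberg adjustment over all genes tested, 2 of the 12 were higher in the MP tumors (Kif11 and Kif18a) and 0 were lower, and 5 of the 12 had an unadjusted p under 0.05. Over all genes tested, 2.51% were called higher and 14.3% lower. The median log2 difference of the 12 was 0.81 against −0.58 for all genes. Kif2a, which also acts at spindle poles but was sorted with the other kinesins, had −0.10. The shared sign of the 12 thus depends on this sorting, which was made with earlier results of these data known. On a median-of-ratios scale, which brings the median of all genes to −0.02, 9 of the 12 were higher (all but Kif4, Kif18b and Kif23) against 7.37% of all genes, and their median was 1.47.

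Kif11, the bipolar motor that slides spindle microtubules apart and separates the poles, was the most abundant kinesin in the tumors. It stood at 37.6, 51.9 and 23.6 TPM in WT ovaries 1, 2 and 3 and at 44.7 to 187 TPM in the MP tumors (median 113). MP tumor 4 was the only tumor below the highest WT ovary. The group means were 37.7 ± 14.1 (SD, n = 3) and 119 ± 46.6 TPM (SD, n = 10), a log2 difference of 1.58 ± 0.42 (SE) with a limma adjusted p of 0.0182. Without WT ovary 1 or without WT ovary 3 the adjusted p was 0.0772 and 0.137.

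Kif18a, which walks to the plus ends of kinetochore microtubules and damps the swing of chromosomes, was the only kinesin with every tumor above every WT ovary, a pattern held by 3.02% of all genes tested. It stood at 3.59, 3.81 and 2.79 TPM in the WT ovaries and between 5.39 and 14.4 TPM in the tumors (median 10.3). Means were 3.40 ± 0.535 (SD, n = 3) and 9.84 ± 3.13 TPM (SD, n = 10), the log2 difference was 1.25 ± 0.39 (SE), and the limma adjusted p was 0.0384. This call lay close to the threshold, since it passed in 5 of the 13 fits that each leave out 1 library, with adjusted p up to 0.172 (without WT ovary 3).

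Kif15, which can take over part of the work of Kif11, stood at 4.80 to 11.1 TPM in the WT ovaries and 5.77 to 33.0 in the tumors, with a log2 difference of 1.05 and a limma adjusted p of 0.140. Kif20a, which brings the Aurora B complex to the central spindle, had the next largest difference after Kif11. It stood at 22.5, 32.3 and 17.9 TPM in the WT ovaries and at 20.1 to 139 TPM in the tumors (median 81.5), a log2 difference of 1.42 ± 0.57 (SE) with a limma adjusted p of 0.0967. MP tumors 2 and 3 lay within the WT range and all 8 others above it. Kif20b, a motor of late cytokinesis, had a log2 difference of 0.99 (limma adjusted p 0.109). Kif22, which pushes chromosome arms away from the poles, had 0.71 (0.451), and Kifc1, the minus-end motor that gathers spindle poles, had 0.91 (0.281).

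The remaining 5 mitotic kinesins had the smallest differences and overlapped the WT ovaries. Kif2c, which takes microtubules apart at centromeres, had a log2 difference of 0.57 (limma adjusted p 0.457), and Kif14, a motor of the midbody, had 0.54 (0.495). Kif18b, which shortens astral microtubules, had 0.27 (0.796). Kif23, the motor subunit of centralspindlin, had 0.21 (0.824), and Kif4, the chromosome-bound partner of Prc1, had 0.15 (0.849). These p-values do not show that the levels were equal, since the tumors spread widely, as Kif23 did from 5.73 to 50.6 TPM.

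**Figure D1:**
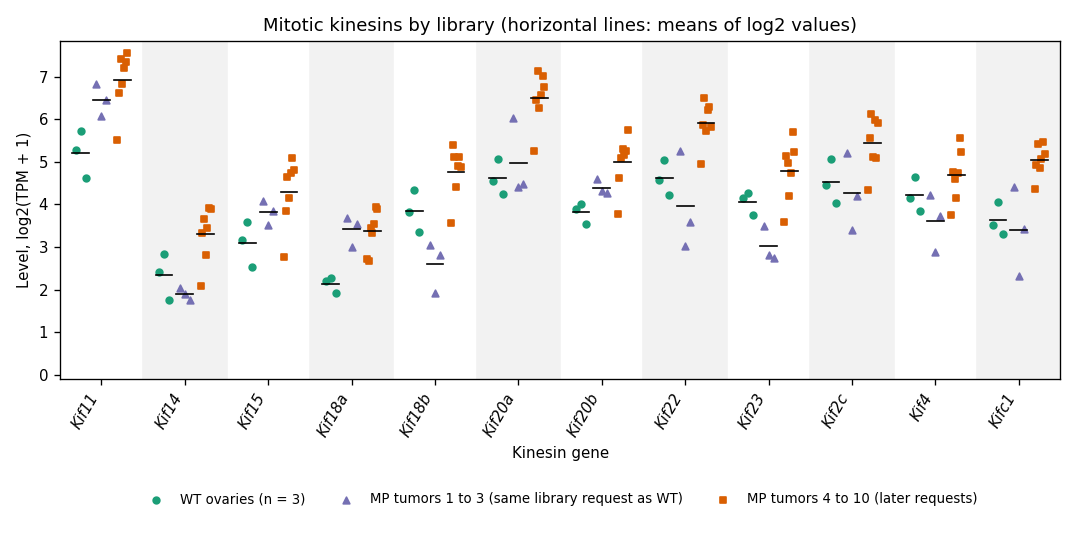
Level of each of the 12 mitotic kinesins in every library, on a log2(TPM + 1) axis, with 1 point per library and lines at the means of the log2 values. Green circles are the 3 WT ovaries, violet triangles MP tumors 1 to 3 and orange squares MP tumors 4 to 10, and for Kif18a no tumor reaches down to the WT ovaries.

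The tumors of the first request differed from the later ones. Against the 3 WT ovaries, MP tumors 1 to 3 alone had a median difference of −1.19 over all genes, and 6.44% of genes were called higher and 57.3% lower. Of the 12 mitotic kinesins, Kif11 (log2 difference 1.25, limma adjusted p 0.0247) and Kif18a (1.28, 0.00405) were higher again. Kif18b (−1.25) and Kif23 (−1.03) were lower, and 7 of the 12 had negative differences. In an added fit without MP tumors 1 to 3, all 12 were positive with a median of 1.18, and 5 were higher (Kif11, Kif18a, Kif20a, Kif22 and Kifc1) against 4.68% of all genes. The log2 difference of Kif20a was then 1.87 with a limma adjusted p of 0.00631. For Kif18a, Kif20a and Kifc1 all 7 later tumors lay above every WT ovary, which 6.45% of all genes did.

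Correlations between kinesins over the 10 tumors had positive medians and spread widely. The 66 mitotic pairs had a median Spearman correlation of 0.78 (0.0909 to 0.988) and the 253 pairs of transport and ciliary kinesins had 0.697 (−0.345 to 0.976), given as a description, since the points share library, depth and request. The lowest tumor was 1 of MP tumors 1 to 3 for 8 of the 12, MP tumor 2 for 6 of these. MP tumor 2 stood apart as a library, with 55.1% of its TPM in 10 genes and 15.4% in mitochondrial genes, against 7.92% to 20.6% and 0.883% to 5.56% in the other tumors. Without it 3 mitotic kinesins were higher, and limma called 635 of all 17277 genes higher. The highest tumor was MP tumor 9 for 6. Among the WT ovaries the order was the same for all 12 genes, with WT ovary 2 highest and WT ovary 3 lowest, an order that 25.9% of all genes tested had. The proliferation marker Mki67 had that order too, at 51.1, 73.5 and 33.3 TPM in WT ovaries 1, 2 and 3, as did the granulosa cell genes Fshr, at 31.0, 75.5 and 23.6 TPM, and Amh, at 340, 441 and 228 TPM. Granulosa cells divide in growing follicles, and their part in the mitotic kinesin levels of WT ovaries was not tested.

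The transport kinesins had differences of the opposite sign. With TPM as deposited, all 14 had a lower mean log2 level in the MP tumors, with a median log2 difference of −1.49 against −0.58 for all genes, but 1 of the 14 was called lower (Kif3c, against 14.3% of all genes), 0 were called higher, and 5 had an unadjusted p under 0.05. Every tumor lay below every WT ovary for 5 of the 14 (Kif1b, Kif1c, Kif3c, Kif5b and Kif13b), as it did for 16.4% of all genes, so that these counts are read against a background in which lower levels were common. On the median-of-ratios scale 13 of the 14 were negative, and Kif3c, Kif5b and Kif13b were lower against 11% of all genes. In bulk tissue, fewer cells of a type and less RNA per cell cannot be told apart.

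Kif3c, which pairs with Kif3a and carries cargo in neurons and other cells, had the largest difference of log2(TPM + 1) among the called kinesins. With 0.1 added to TPM in place of 1, that of Kif17 was larger, at −3.64 against −3.10 for Kif3c. Kif3c stood at 15.8, 13.9 and 14.4 TPM in WT ovaries 1, 2 and 3 and at 0.292 to 4.43 TPM in the tumors (median 2.17). The highest tumor, MP 10, was still far below the lowest WT ovary. Means were 14.7 ± 0.985 (SD, n = 3) and 2.20 ± 1.48 TPM (SD, n = 10), a log2 difference of −2.46 ± 0.49 (SE) with a limma adjusted p of 0.0028. The call held in all 13 fits without 1 library and under every other setting tried, with adjusted p up to 0.0245.

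Kif3c also made up less of its own family in the tumors. Kif3a binds either Kif3b or Kif3c, and of the summed TPM of these 3 genes Kif3c took 15.6%, 13.5% and 14.8% in the WT ovaries and 3.09% to 7.18% in the tumors, so that all 10 tumors lay below all 3 WT ovaries. A share within a library does not depend on how libraries are scaled to each other. Kif3b kept 28.9% to 60.7% in the tumors, a range that spans the WT shares of 44.6% to 47.2%, and Kif3a lay above the WT shares in 8 of 10 tumors.

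Kif5b, the widely expressed heavy chain of conventional kinesin, was the most abundant kinesin of the WT ovaries. It stood at 121, 127 and 102 TPM in the WT ovaries and at 13.2 to 85.7 TPM in the tumors (median 37.1). No tumor reached a WT ovary, but the log2 difference of −1.66 ± 0.55 (SE) had a limma adjusted p of 0.0510. The call passed on the median-of-ratios scale (−0.95, adjusted p 0.0413). Its relative Kif5c, known mainly from neurons, took 3.74% to 4.01% of the summed Kif5 TPM in the WT ovaries and more than that in 8 of 10 tumors, up to 15.7% in MP tumor 8.

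Kif1b, which carries mitochondria and vesicle precursors, stood at 41.3, 38.5 and 36.9 TPM in the WT ovaries and at 3.86 to 28.5 in the tumors, with a log2 difference of −1.46 (limma adjusted p 0.0727). Kif1c, a fast carrier of vesicles and RNA, stood at 72.6, 68.4 and 73.4 TPM in the WT ovaries. Its tumors lay in 2 ranges, 3.62 to 8.15 TPM in MP tumors 1 to 3 and 23.7 to 63.4 TPM in the 7 later ones, all below the WT ovaries (log2 difference −1.52, limma adjusted p 0.207). For all 14 transport kinesins the lowest tumor was 1 of MP tumors 1 to 3, and 13 of the 14 were lower in those 3 tumors against the WT ovaries, where 57.3% of all genes were.

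The ciliary kinesins had a median log2 difference of −0.82, against −0.58 for all genes. Of the 9, 7 were negative, as were 69.9% of all genes, and 2 positive (Kif6 and Kif24, both negative in MP tumors 1 to 3 alone). By limma 1 was called lower (Kif17, against 14.3% of all genes) and 0 were called higher, and 3 had an unadjusted p under 0.05. Kif17 met the filter only through the 3 WT ovaries. With a TPM of 1 required in 10 or more libraries, 4 ciliary kinesins were tested and 0 were called. Every tumor lay below every WT ovary for 3 of the 9 (Kif3b, Kif9 and Kif17), against 16.4% of all genes. On the median-of-ratios scale the median was −0.28, 6 were negative, and Kif17 alone was lower, against 11% of all genes.

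Kif17, a motor of primary cilia and of dendrites, stood at 3.98, 4.22 and 3.10 TPM in the WT ovaries and at 0 to 0.561 TPM in the tumors (median 0.248). Every tumor was far below the WT ovaries. It had no read in MP tumors 1 and 3, which allows up to 0.0911 and 0.0747 TPM by a limit of 3 reads for counting error only. Means were 3.77 ± 0.588 (SD, n = 3) and 0.276 ± 0.218 TPM (SD, n = 10), a log2 difference of −1.91 ± 0.24 (SE) with a limma adjusted p of 4.65e-05, and the + 1 understates the change of so low a gene. It was called in all 13 fits without 1 library. Kif17 met the filter only through the 3 WT ovaries, since no tumor reached a TPM of 1. A gene at this tumor level could enter the test only by a higher level in the WT ovaries. A filter of a TPM of 1 in 10 or more libraries left Kif17 untested.

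Kif3a and Kif3b form the motor that carries cargo outward along the cilium, together with Kifap3, which binds the pair. Kif3a stood at 39.7, 43.2 and 37.0 TPM in the WT ovaries and 2.86 to 42.0 in the tumors (log2 difference −1.16, limma adjusted p 0.268). Kif3b stood at 45.5, 46.0 and 46.0 TPM in the WT ovaries and 2.75 to 44.7 in the tumors (−1.59, 0.0933). MP tumor 10 was the highest for both genes. Kif7, which holds the tip of the cilium in order for Hedgehog signals, stood at 8.47 to 10.0 TPM in the WT ovaries and 1.00 to 16.8 in the tumors (−0.87, 0.376), and MP tumors 6, 8 and 9 lay above all WT ovaries.

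**Figure D2:**
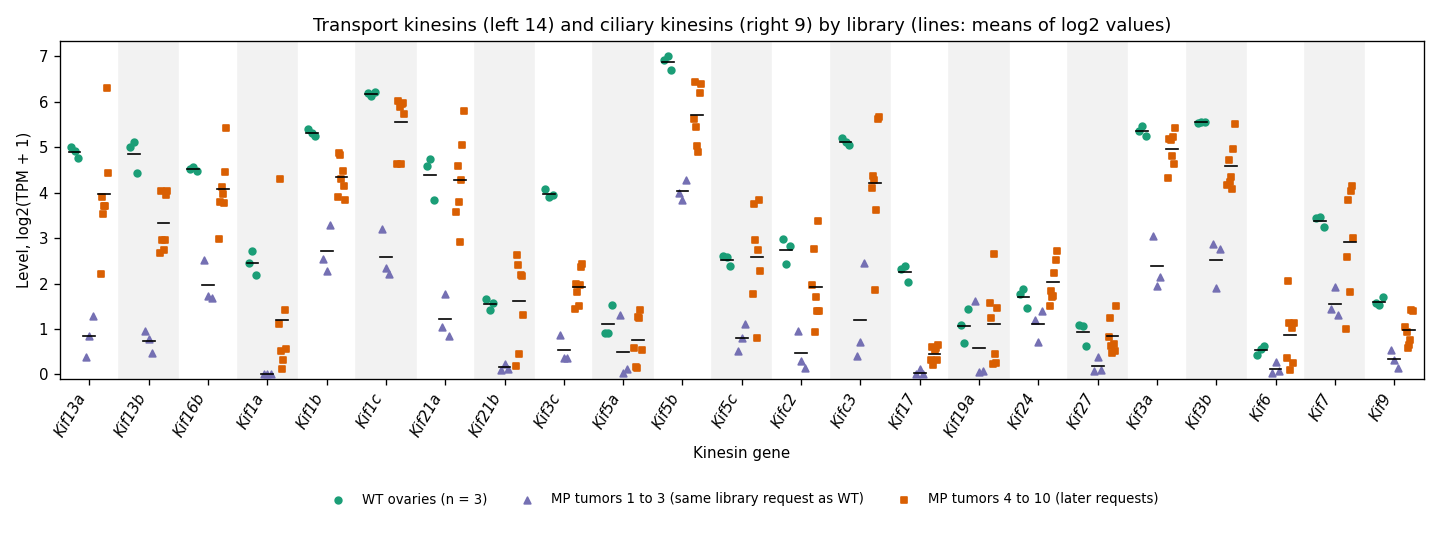
Level of the 14 transport and 9 ciliary kinesins in every library on a log2(TPM + 1) axis, with 1 point per library and lines at the means of the log2 values. Green circles are the 3 WT ovaries, violet triangles MP tumors 1 to 3 and orange squares MP tumors 4 to 10, and the violet points lie at the bottom for most genes while Kif3c and Kif17 are below the WT ovaries in all tumors.

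Of the 6 other kinesins 3 were tested and limma called 0, with 1 (Kif26a) at an unadjusted p under 0.05. Kif2a, which shortens microtubules at spindle poles and in neurons, stood at 21.3 to 27.3 TPM in the WT ovaries and 9.59 to 44.97 in the tumors (log2 difference −0.10, limma adjusted p 0.886), and it turned positive on the median-of-ratios scale (0.59). Kif26a, an atypical kinesin that binds microtubules without walking, stood at 30.4, 24.2 and 12.2 TPM in the WT ovaries. The tumors lay between 0.0165 and 14.5 TPM, with MP tumors 1 to 4 all under 0.2 (−2.48 ± 0.90 SE, limma adjusted p 0.0703). Its relative Kif26b stood at 2.24 to 3.72 TPM in the WT ovaries, and the tumors were spread from 0.0473 to 22.6 TPM, the highest being MP 9 (−0.75, 0.5258).

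Counted over all 38 tested kinesins, 2 were higher in the MP tumors against 2.51% of all genes and 2 lower against 14.3%. On the median-of-ratios scale 9 were higher against 7.37% and 4 lower against 11%. A stricter filter, a TPM of 1 reached in 10 or more libraries, left 1 higher (Kif11) against 2.9% of the genes it kept and 1 lower (Kif3c) against 7.53%. Quantile normalization of the libraries gave 12 higher, all mitotic, against 11% of all genes and 5 lower against 12.1%. limma-voom on reads worked back from the TPM gave the same 12 higher against 15.8% and 7 lower against 17.6%. With the library request as a covariate 2 were higher, where 5.17% of all genes were, and 19 lower, where 49.4% were. A block on the replicate number, over the first request alone, gave 2 higher against 6.34% and 23 lower against 56.9%. Kif11 was higher and Kif3c lower under every one of these settings. The covariate and the block are not separate checks. Both take the difference from the 3 WT ovaries and MP tumors 1 to 3, with the same values for Kif11 (1.25) and Kif3c (−3.44). The difference under each of 3 settings is drawn for every kinesin.

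**Figure D3:**
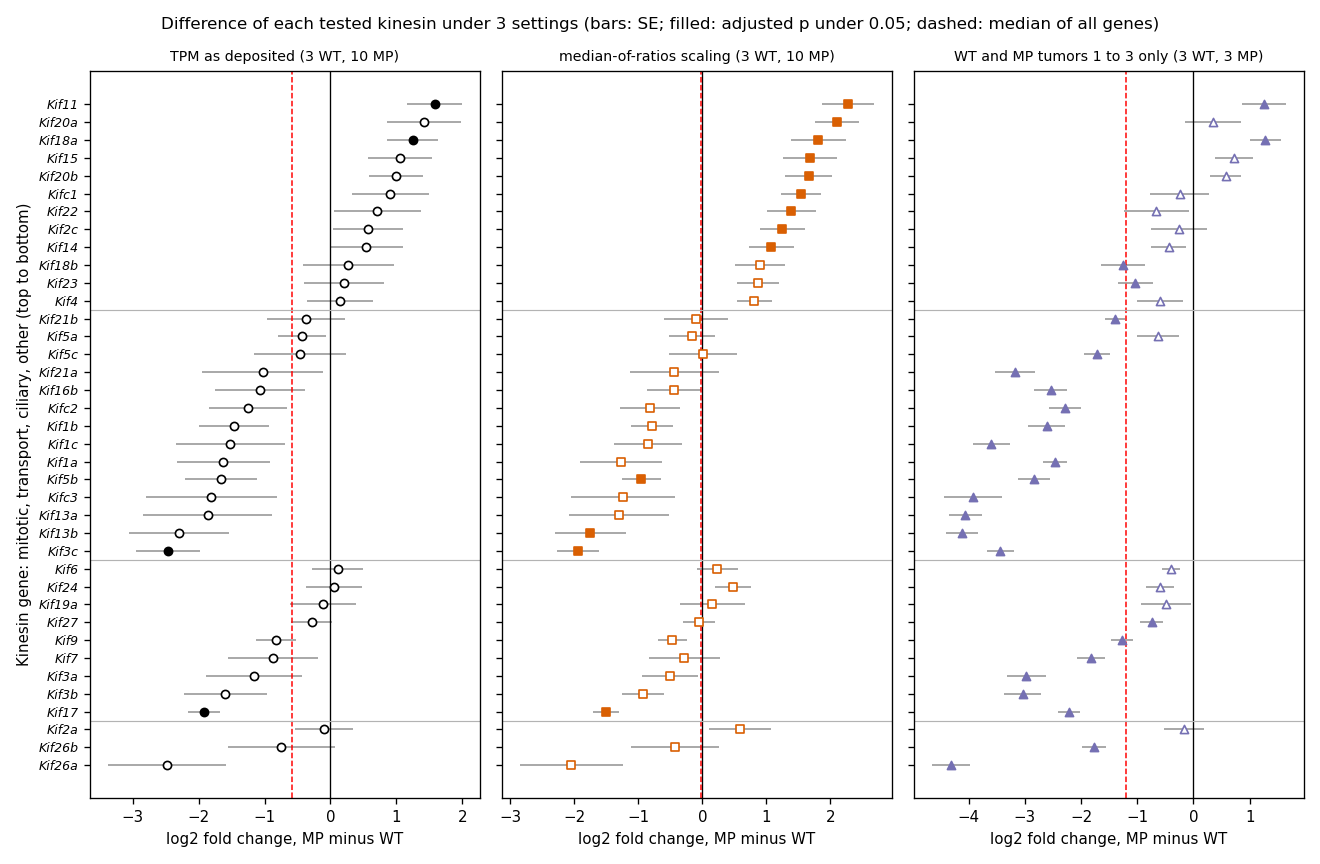
Log2 difference (MP minus WT) of the 38 tested kinesins with its SE, in rows ordered by role, for TPM as deposited, for median-of-ratios scaling and for MP tumors 1 to 3 alone against the WT ovaries. Filled marks passed an adjusted p of 0.05, the dashed red line is the median of all genes tested, and mitotic kinesins lie to its right in the left and middle panels.

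The balance between roles can be read within each library, where scaling between libraries drops out. Mitotic kinesins made up 24.8%, 31.4% and 21.9% of the summed kinesin TPM in WT ovaries 1, 2 and 3 and 52.5% to 82.9% in the tumors (median 66.1%). Transport kinesins made up 49.1% to 56.3% in the WT ovaries and 8.99% to 34.8% in the tumors. Neither pair of ranges overlaps. The mitotic share was 70.4% to 82.9% in MP tumors 1 to 3 and 52.5% to 68.0% in the later 7. The summed TPM of all kinesins was not set apart, at 636 to 835 in the WT ovaries and 221 to 1204 in the tumors. The tumors with the greatest mitotic share were not those with the most mitotic kinesin RNA, since MP tumors 1 to 3 had 162 to 360 TPM of it and the later 7 had 212 to 675. The WT ovaries had 139 to 262 TPM of it, and MP tumors 2, 3 and 4 lay within that range.

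**Figure D4:**
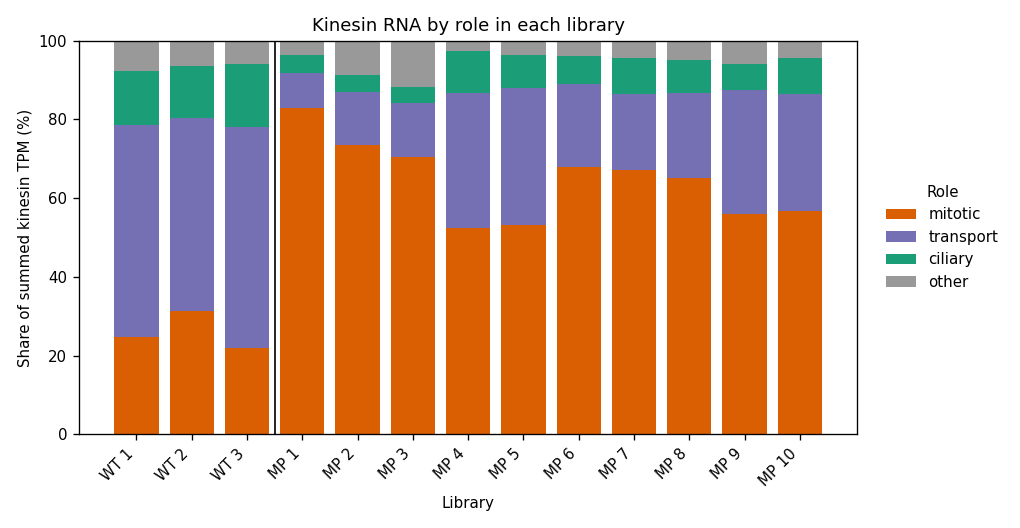
Share of the summed kinesin TPM taken by mitotic, transport, ciliary and other kinesins (percent, stacked from 0 to 100) in each of the 3 WT ovaries and 10 MP tumors. Mitotic kinesins take 21.9% to 31.4% in the WT ovaries and 52.5% to 82.9% in the tumors.

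Gene length differed between roles. The median transcript length was 5208.5 bp for mitotic, 7400.5 bp for transport and 4582 bp for ciliary kinesins. Across all genes tested, those under 2000 bp had a median log2 difference of −0.08 and those of 5000 bp or more −0.90, and in MP tumors 1 to 3 alone the medians were −0.33 and −1.90. In an added fit with the length trend of each library removed, 11 of the 12 mitotic kinesins (all but Kif18b) and Kif24 were higher against 11.4% of all genes, and Kif3c, Kif13b and Kif17 were lower against 9.19%. In that fit, where the median of all genes was 0.12, the median of the mitotic kinesins was 1.63, that of the transport kinesins shrank from −1.49 to −0.55 with 3 of 14 positive, and that of the ciliary kinesins from −0.82 to −0.0081 with 4 of 9 positive.

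Genes that work with the mitotic kinesins were counted in the same way. Of 15 tested partners, 7 were higher and 0 lower, with a median log2 difference of 1.01, where 2.51% of all genes were called higher. The count rested on the WT ovaries, at 1 without WT ovary 1, 3 without WT ovary 2 and 0 without WT ovary 3, where the genes called higher in all fell from 433 to 135, 153 and 94. It was 13 with median-of-ratios scaling against 7.37% of all genes, and within the first request 3 were higher against 6.44% and 2 lower against 57.3%. The largest were Ect2, which starts the contractile ring (log2 difference 1.67, limma adjusted p 0.00536), Aurka, the kinase of spindle poles (1.58, 0.0151), and Birc5, a subunit of the Aurora B complex (1.56, 0.0245). Racgap1, the subunit of centralspindlin that binds Kif23, was higher as well. It stood at 26.7, 35.7 and 20.2 TPM in the WT ovaries and at 35.8 to 122 TPM in the tumors (log2 difference 1.47 ± 0.40 SE, limma adjusted p 0.0210), whereas Kif23 itself had a difference of 0.21 (adjusted p 0.824), and the contrast between the pair was not tested. Aurkb, its kinase, was higher (1.51, adjusted p 0.0481), and Tpx2, which brings Kif11 and Kif15 to the spindle, had 0.49 (0.567). Of 8 proliferation genes, 4 were higher (Ccna2, Ccnb1, Cdk1 and Mcm5) and 0 lower, but 0 without WT ovary 1 or 3, 1 without WT ovary 2 or MP tumor 8, 2 without MP tumor 1 or 7, and 7 with median-of-ratios scaling. Mki67 had 0.30 (0.796). Cenpe, the kinetochore kinesin outside the name rule, had 0.27 (0.80). Kifc5b, a near copy of Kifc1 between which reads can be split, stood at 2.75 to 4.30 TPM in the WT ovaries and 2.88 to 20.8 in the tumors.

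Fewer transport and ciliary partners were called with all 10 tumors than within the first request. Of 15 tested transport partners, 2 were lower and 0 higher, where 14.3% of all genes were lower, and the count was 1 with any single WT ovary left out and without MP tumor 1, 3, 4, 6, 7 or 8. Within the first request 14 were lower, where 57.3% of all genes were. Klc2, a light chain that links conventional kinesin to cargo, stood at 72.9, 100 and 63.9 TPM in the WT ovaries and 1.18 to 18.8 in the tumors (log2 difference −3.01 ± 0.64 SE, limma adjusted p 0.00498), and no tumor reached a WT ovary. Plekhm2, which ties lysosomes to Kif5b, was the other (−1.91, adjusted p 0.0448), while Klc1 had −1.44 (0.0954). Of 22 ciliary partners, 1 was lower and 0 higher, 0 were lower with any single WT ovary left out, 2 without MP tumor 2 or 9, and within the first request 16 were. The gene lower with all libraries was Gli1, the target gene of Hedgehog signals, at 8.23 to 10.96 TPM in the WT ovaries and 0 to 6.01 in the tumors (−2.34 ± 0.57 SE, limma adjusted p 0.0117). Kifap3 had −1.01 (0.0990). The median log2 difference of the ciliary partners, −0.67, lay near that of all genes. Stard9, a centriole kinesin outside the name rule, stood at 5.91 to 7.57 TPM in the WT ovaries and 0.315 to 7.66 in the tumors.

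Markers of the cell types of the ovary were read in the same libraries. The 9 steroidogenic and granulosa markers were all called lower, with summed levels of 28236 to 33834 TPM in the WT ovaries and 10.2 to 2197 in the tumors. Called lower, with 0 called higher, were 4 of 7 fibroblast and smooth muscle markers (summed 2202 to 2962 TPM in WT ovaries and 70.3 to 3600 in tumors), 3 of 5 endothelial markers (269 to 283 and 6.04 to 189 TPM), 2 of 6 tested epithelial markers (272 to 299 and 6.16 to 1191 TPM), 1 of 4 tested neuron markers (45.3 to 62.7 and 6.12 to 113 TPM), 0 of 4 tested leukocyte markers (2 negative with an unadjusted p under 0.05 by limma, 101 to 248 and 30.3 to 166 TPM) and 0 of 4 tested ciliated cell markers (12.9 to 14.8 and 1.76 to 40.3 TPM). Over all genes tested, 14.3% were called lower. Several of these counts rested on single libraries. The fibroblast and smooth muscle count was 1 without WT ovary 1 or 3, 2 without WT ovary 2 and 6 without MP tumor 5 or 9. The endothelial count was 2 with any single WT ovary left out and 5 without MP tumor 5 or 9, the neuron count was 3 without MP tumor 10 and 2 without MP tumor 5, and the leukocyte count was 1 without MP tumor 5 or 9. The steroidogenic and granulosa count was 7 with any single WT ovary left out and 9 with any single tumor left out. The ciliated cell markers did not run 1 way. Sntn was at 0 in all libraries and Foxj1 at most 0.717 TPM, whereas Ccdc40 stood at 0.281 to 0.522 TPM in the WT ovaries and 0.874 to 35.3 in the tumors, above every WT ovary in all 10 (log2 difference 1.66, limma unadjusted p 0.0423 and adjusted p 0.136). Dnah9 lay below every WT ovary in all 10 tumors (0.531 to 0.882 TPM in the WT ovaries and 0 to 0.161 in the tumors, not tested). Rsph1 stood at 9.43 to 12.3 TPM in the WT ovaries and 0 to 29.2 in the tumors. Of the neuron markers, Snap25 was at most 0.111 TPM. The part of these cells in the kinesin differences was not tested.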

How the data were processed

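RNA-seq of bulk tissue from 3 WT ovaries and 10 MP tumors was analysed. The authors deposited 1 table of TPM values for 53465 genes. The submitters' processing notes list FastQC 0.11.5, Trimmomatic 0.36, STAR 2.5.3a and featureCounts 1.6.3 with a mouse build, whereas another label names a human build and RPKM. Start and end of 96.0% of the genes are those of mouse GENCODE release M21 (GRCm38). TPM times gene length gave whole reads (within 0.01) for 100% of values, and so a depth per library. Reads of near copies (Kifc1 and Kifc5b, and pseudogenes of Kif4 and Kif22) could be split or lost in counting, and an antisense gene overlaps Kif16b.

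limma 3.58.1 (R 4.3.3) with trended, robust variance was fitted to log2(TPM + 1) of the 17277 genes that reached a TPM of 1 in 3 or more libraries. P-values were adjusted by Benjamini-Hochberg over all of them, with a threshold of 0.05, and the code was tested on simulated data. With no statement on separate animals for each ovary, p-values measure the spread between these samples. No 2 libraries of a group were alike within sampling noise. Each per-sample column was matched to a sample, with 0 left over.

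The kinesins, the role, partner and marker lists and the tests were chosen with earlier results of these data known. Named with values were all mitotic kinesins, every kinesin past the threshold, the 3 of each other role with the highest mean TPM, and partners past the threshold (at most 3 in each direction) plus Kifap3, Klc1, Racgap1, Tpx2, Aurkb and Mki67. Other names stand where a count or a share needed them and were chosen after their values were seen. The symbols Kifbp, Dnai1 and Dnai2 were not matched. Alternatives covered the pseudocount, filters, scaling, voom on recovered reads, the limma options, the library request, a replicate block and single libraries, and those without MP tumors 1 to 3 or with the length trend removed were added after seeing the data. Figures were drawn with matplotlib 3.10.9.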

Additional observations from a re-analysis of the deposited data

Results flagged for a closer look

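Kif1a, a motor of synaptic vesicle precursors, was the only 1 of 39 measures (the 38 tested kinesins and the mitotic share) in which a tumor stood apart from the other 9 by Dixon's test. It stood at 18.7 TPM in MP tumor 5 and at 1.65 TPM in the next highest tumor, against 3.57 to 5.60 in the WT ovaries, and it had no read in MP tumors 1, 2 and 3, which allows up to 0.0579 TPM by a limit of 3 reads. Chance flags about 1 in 20 groups, which is 1.95 of 39. Kif1a took 16.9% of the summed Kif1 TPM in MP tumor 5 and at most 2.99% in the other tumors. Of 9 neuron markers summed, MP tumor 5 had 29.6 TPM, below the WT ovaries, and MP tumor 1, without a Kif1a read, had the most, at 113 TPM. The part of neurons in the Kif1a level was not tested. The log2 difference of Kif1a was −1.63 with a limma adjusted p of 0.124. Kif1a was called in 1 of the 13 fits that each leave out 1 library, the fit without MP tumor 5 (−2.01, limma adjusted p 0.000918). That tumor was singled out by its Kif1a level, so this fit is no separate support.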

How the results depend on the processing

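The main limits are the 3 WT ovaries, the shallower tumors, and later library requests without a WT ovary. The count of kinesins higher and lower was 2 and 2 with the settings of the report, where 2.51% and 14.3% of all genes were. It was unchanged with a pseudocount of 0.1 and with no filter on low values. Without the trended and robust variance it was 2 and 3, with Kif13b newly lower (adjusted p 0.0475). It was 1 and 1 with the stricter filter (a TPM of 1 reached in 10 or more libraries), 9 and 4 with median-of-ratios scaling, 12 and 5 with quantile normalization, 12 and 7 with voom on recovered reads, 5 and 5 without MP tumors 1 to 3, and 12 and 3 with the length trend removed. All those called higher were mitotic, other than Kif24 with the length trend removed (11 mitotic). Under these settings all those called lower were transport or ciliary kinesins, other than 1 under voom (6 of 7). With the library request as a covariate 19 were lower, 17 of them transport or ciliary, and within the first request 23 and 19. Leaving out 1 library gave 0 to 3 higher, all mitotic, and 2 to 7 lower, 2 to 6 of them transport or ciliary. There were 0 higher without WT ovary 1 or 3, when limma called 135 and 94 genes higher in all, 1 without WT ovary 2 or MP tumor 1, 3, 6, 7 or 8, and 3 without MP tumor 2. There were 7 lower without MP tumor 5 and 6 without MP tumor 9 or 10, when limma called 3144, 3264 and 2968 of 17277 genes lower in all, against 2463 with all libraries, so these counts lie near the share of all genes. The cause of these shifts was not tested.

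WT ovaries and MP tumors 1 to 3 share replicate numbers, with no statement that a number stands for 1 animal. Deviations of same-numbered libraries had correlations of −0.0963, −0.0214 and 0.00118, so the numbers were not read as a pairing. A fit with the replicate block over those 6 libraries called 2 higher and 23 lower (19 transport or ciliary), as did the fit within the request without the block. In the request covariate, within-request and block fits the log2 differences of 7 mitotic kinesins turned negative: Kif2c −0.25, Kif4 −0.60, Kif14 −0.44, Kif18b −1.25, Kif22 −0.66, Kif23 −1.03 and Kifc1 −0.25. Kif6 (−0.40) and Kif24 (−0.60) turned negative in these fits too, and Kif6 with a pseudocount of 0.1 (−0.17). Kif5c turned positive with median-of-ratios (0.0071), quantile (0.33), the length trend removed (0.48) and without MP tumors 1 to 3 (0.067), and Kif5a, Kif19a, Kif21b and Kif27 turned positive with quantile normalization and the length trend removed, Kif19a also with median-of-ratios (0.16) and without MP tumors 1 to 3 (0.048), and Kif21b without those tumors (0.069). Reversals of other kinesins named with values were Kif4 without WT ovary 3 (−0.036, the lowest of −0.036 to 0.37 over fits without 1 library), Kif7 with quantile normalization (0.077), Kif26b with the length trend removed (0.41), and Kif2a with median-of-ratios (0.59), quantile (0.60), voom (0.67), the length trend removed (0.81) and without MP tumor 4 (0.032, the highest of −0.20 to 0.032). Over the named kinesins, 455 alternative values kept direction and side of the threshold, 77 newly passed, 11 no longer passed and 29 reversed.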
